A study of Mus musculus with 12 samples.

Results

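The nuclear genes for the subunits of the mitochondrial respiratory chain and ATP synthase were compared between normal trigeminal nerve and plexiform neurofibroma in mice. Members were taken by gene symbol: symbols that begin with Nduf and a subunit letter and number, the symbols Sdha to Sdhd, symbols that begin with Uqcr, with Cox and a subunit number and letter, or with Atp5, leaving out those that carry the pseudogene tag -ps. Of 47480 symbols in the count table, 82 met the rule: 37 for complex I, 4 for complex II, 8 for complex III, 16 for complex IV and 17 for complex V. Of these, 78 passed the filter on low counts and were tested, and the other 4 (Cox6a2, Cox7b2, Cox8b and Cox8c) were not.

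RNA had been sequenced from the trigeminal nerve, which carries sensation from the face, in 6 samples of normal nerve with the genotype Nf1 flox/flox PostnCre- and in 6 of plexiform neurofibroma with the genotype Nf1 flox/flox PostnCre+. This tumour is benign and grows within nerves, and Nf1 encodes neurofibromin, which turns RAS off. All 12 samples carried the floxed Nf1 alleles, and the Cre recombinase, named for the gene Postn, was present in the tumour group alone, so that tumour state and Cre cannot be told apart. The labels gave no age, sex, litter or batch and did not say that each sample came from its own animal, so p-values measure the spread between these samples.

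Oxidative phosphorylation passes electrons from NADH through complex I, and from succinate through complex II, to complex III and then by cytochrome c to complex IV, which reduces oxygen. Complexes I, III and IV pump protons across the inner mitochondrial membrane, and complex V, ATP synthase, uses the returning protons to make ATP. Most subunits are encoded in the nucleus, many of them by short transcripts of small accessory proteins, while a few core subunits are encoded in mitochondrial DNA. Long sensory axons depend on this supply of ATP along their length.

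The rule works on names. Ndufa4 was counted with complex I by its symbol, although its protein is now placed in complex IV. Ndufa4l2 is its paralog, Cox7a2l encodes a factor that joins complexes III and IV into supercomplexes, and Atp5s and Atp5sl (now Dmac2l and Dmac2) carry the name of ATP synthase but encode no structural subunit of it. The nuclear subunit genes Ndufab1, Cox4i1, Cox4i2, Cyc1 and Cycs lie outside the rule and are given with the assembly factors. The 13 subunits encoded in mitochondrial DNA were not analysed here.

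Total estimated counts ran from 14160025 to 19989351 per library. Nf1 itself had a lowest, median and highest level of 85.5, 141 and 173 CPM (counts scaled to a common library size and composition) in normal nerve and of 69.6, 86.6 and 93.1 CPM in tumour. The 2 groups overlapped, and the tumour mean was lower (131 ± 35.8 against 83.8 ± 8.13 CPM, SD, n = 6 each, log2 fold change -0.65, adjusted p = 0.0179 by edgeR's quasi-likelihood test). Markers of the tissue were present in every library: sensory neuron transcripts summed to 9331 to 17930 CPM in normal nerve and 11645 to 14998 CPM in tumour, with 0 of 14 called by edgeR (1 at an unadjusted p under 0.05, 1 by DESeq2 and 4 by limma-voom, all lower in tumour). Schwann cell markers were higher in tumour for 6 of 12 (5429 to 15340 CPM in normal nerve, 14019 to 24202 CPM in tumour), fibroblast and perineurium markers for 6 of 10 (354 to 1395 and 1625 to 3614 CPM), and 3 of 10 macrophage markers were higher and 1 lower (61.3 to 287 and 193 to 432 CPM). Pericyte and smooth muscle markers were higher for 2 of 8, and 1 of 8 endothelial and 1 of 8 tested central nervous system markers were lower. Over all genes tested 10% were higher and 8.63% lower. In bulk tissue, fewer cells of a type and less RNA per cell cannot be told apart, and the part these cell types play in the results was not tested. Skeletal muscle markers stood apart in normal nerve replicate 3 (545 CPM) and tumour replicate 1 (2114 CPM), against 39.3 to 107 CPM in the other 10 libraries. Central nervous system markers stood apart in normal nerve replicate 6 (3729 CPM, against 1199 to 2168 CPM elsewhere).

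The promoters of 3 members on which the results turn are shown: Atp5e, with the largest change among the called members, and Uqcr11 and Uqcrc1, a pair of complex III genes that were called in opposite directions. Each is 280 bases, from 250 before to 30 after the start of transcription, from RefSeq on build GRCm38.p6, read along the strand of the gene. Capitals mark matches on either strand to CCGGAAG (the ETS motif that GABPA binds), CCAAT (the NF-Y motif) or CGCATGCG (the core of the NRF1 motif). The Atp5e window lies at chr2:174464072-174464351 on the minus strand, the Uqcr11 window at chr10:80406792-80407071 on the minus strand, and the Uqcrc1 window at chr9:108936398-108936677 on the plus strand.
Atp5e: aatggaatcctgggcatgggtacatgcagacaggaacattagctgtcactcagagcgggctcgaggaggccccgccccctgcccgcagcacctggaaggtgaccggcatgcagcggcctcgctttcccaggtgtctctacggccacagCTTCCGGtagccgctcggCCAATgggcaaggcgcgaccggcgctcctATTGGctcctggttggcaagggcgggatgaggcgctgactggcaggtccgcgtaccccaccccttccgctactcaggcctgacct
Uqcr11: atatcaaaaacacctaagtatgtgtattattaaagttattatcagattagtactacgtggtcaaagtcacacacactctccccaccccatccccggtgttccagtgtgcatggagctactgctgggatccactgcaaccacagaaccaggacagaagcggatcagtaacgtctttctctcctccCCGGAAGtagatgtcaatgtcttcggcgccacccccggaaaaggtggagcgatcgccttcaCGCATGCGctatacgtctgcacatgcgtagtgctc
Uqcrc1: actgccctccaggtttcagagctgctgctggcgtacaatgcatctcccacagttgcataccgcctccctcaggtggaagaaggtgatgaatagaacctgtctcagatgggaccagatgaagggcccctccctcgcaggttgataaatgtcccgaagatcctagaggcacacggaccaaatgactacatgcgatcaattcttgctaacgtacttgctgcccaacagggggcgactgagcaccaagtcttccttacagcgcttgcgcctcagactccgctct
In Atp5e an ETS match and 2 CCAAT matches stand upstream of the start. In Uqcr11 an ETS match stands 66 bases upstream and an NRF1 core 5 bases upstream. None of the motifs is in the Uqcrc1 window. Of other members called higher, Ndufa7 had no match in either of its 2 windows. Ndufa13, Ndufb4, Ndufs6 and Ndufv3, also called higher, had CCAAT matches alone. Whether the motifs go with the direction of change was not tested.

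Promoter windows were found for 69 of the 82 members (75 windows). CCGGAAG was in 21.3% of these windows, against 8.45% of the 32851 windows of that length in RefSeq. CGCATGCG was in 10.7%, against 1.78%. It was in the windows of Ndufa11, Ndufa8, Uqcr11, Cox6a1, Atp5g2, Atp5j, Atp5k and Atp5l, of which Uqcr11 was called. With a G before and a C after these 8 letters the shares were 5.33% and 0.91%. CCAAT was in 42.7%, against 36.1%, and AAGATGGCG, the YY1 motif, in 2.67%, against 1.05%. Both strands were searched, and since CCGGAAG ends in the AAG with which AAGATGGCG begins, 1 stretch can hold both. These matches describe the windows and do not show that a factor binds there.

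The summed RNA of the respiratory chain differed little between the groups. All 82 members together held 8809 ± 729 CPM in normal nerve and 8859 ± 607 CPM in tumour (SD, n = 6 each). These are 0.881% and 0.886% of the scaled library size. Of the 78 tested, 8 were higher in tumour (10.3%) and 2 were lower (2.56%), while over all 17236 genes tested 10% were higher and 8.63% were lower at an adjusted p under 0.05. The share of members called higher was thus near the background, and the share called lower was below it. These counts changed with the libraries left out, with the tool and with the correction for transcript length. Without normal nerve replicate 6, 19 members were higher (24.4%, against 14.6% of all genes) and 2 lower (2.56%, against 14.2%). Without normal nerve replicate 5, 3 members were higher and 0 lower, where 1191 and 907 of 17507 genes were. Without tumour replicate 4, 3 were higher and 0 lower, where 1092 and 801 of 17344 genes were. Limma-voom called 19 members higher and 3 lower, and 2864 and 2701 of 17236 genes. After the correction for transcript length 1 was higher (1.28%, against 8.37%) and 6 were lower (7.69%, against 6.11%). None of the 78 separated the 2 groups: 0 had all tumours above all normal nerves, and 0 had all tumours below, where 4.4% and 2.99% of all genes did so. By sign alone, 55 of 78 members (70.5%) had a log2 fold change above 0, against 47.5% of all genes. The changes were small, with a median log2 fold change of 0.05 over members and -0.02 over all genes.

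**Figure D1:**
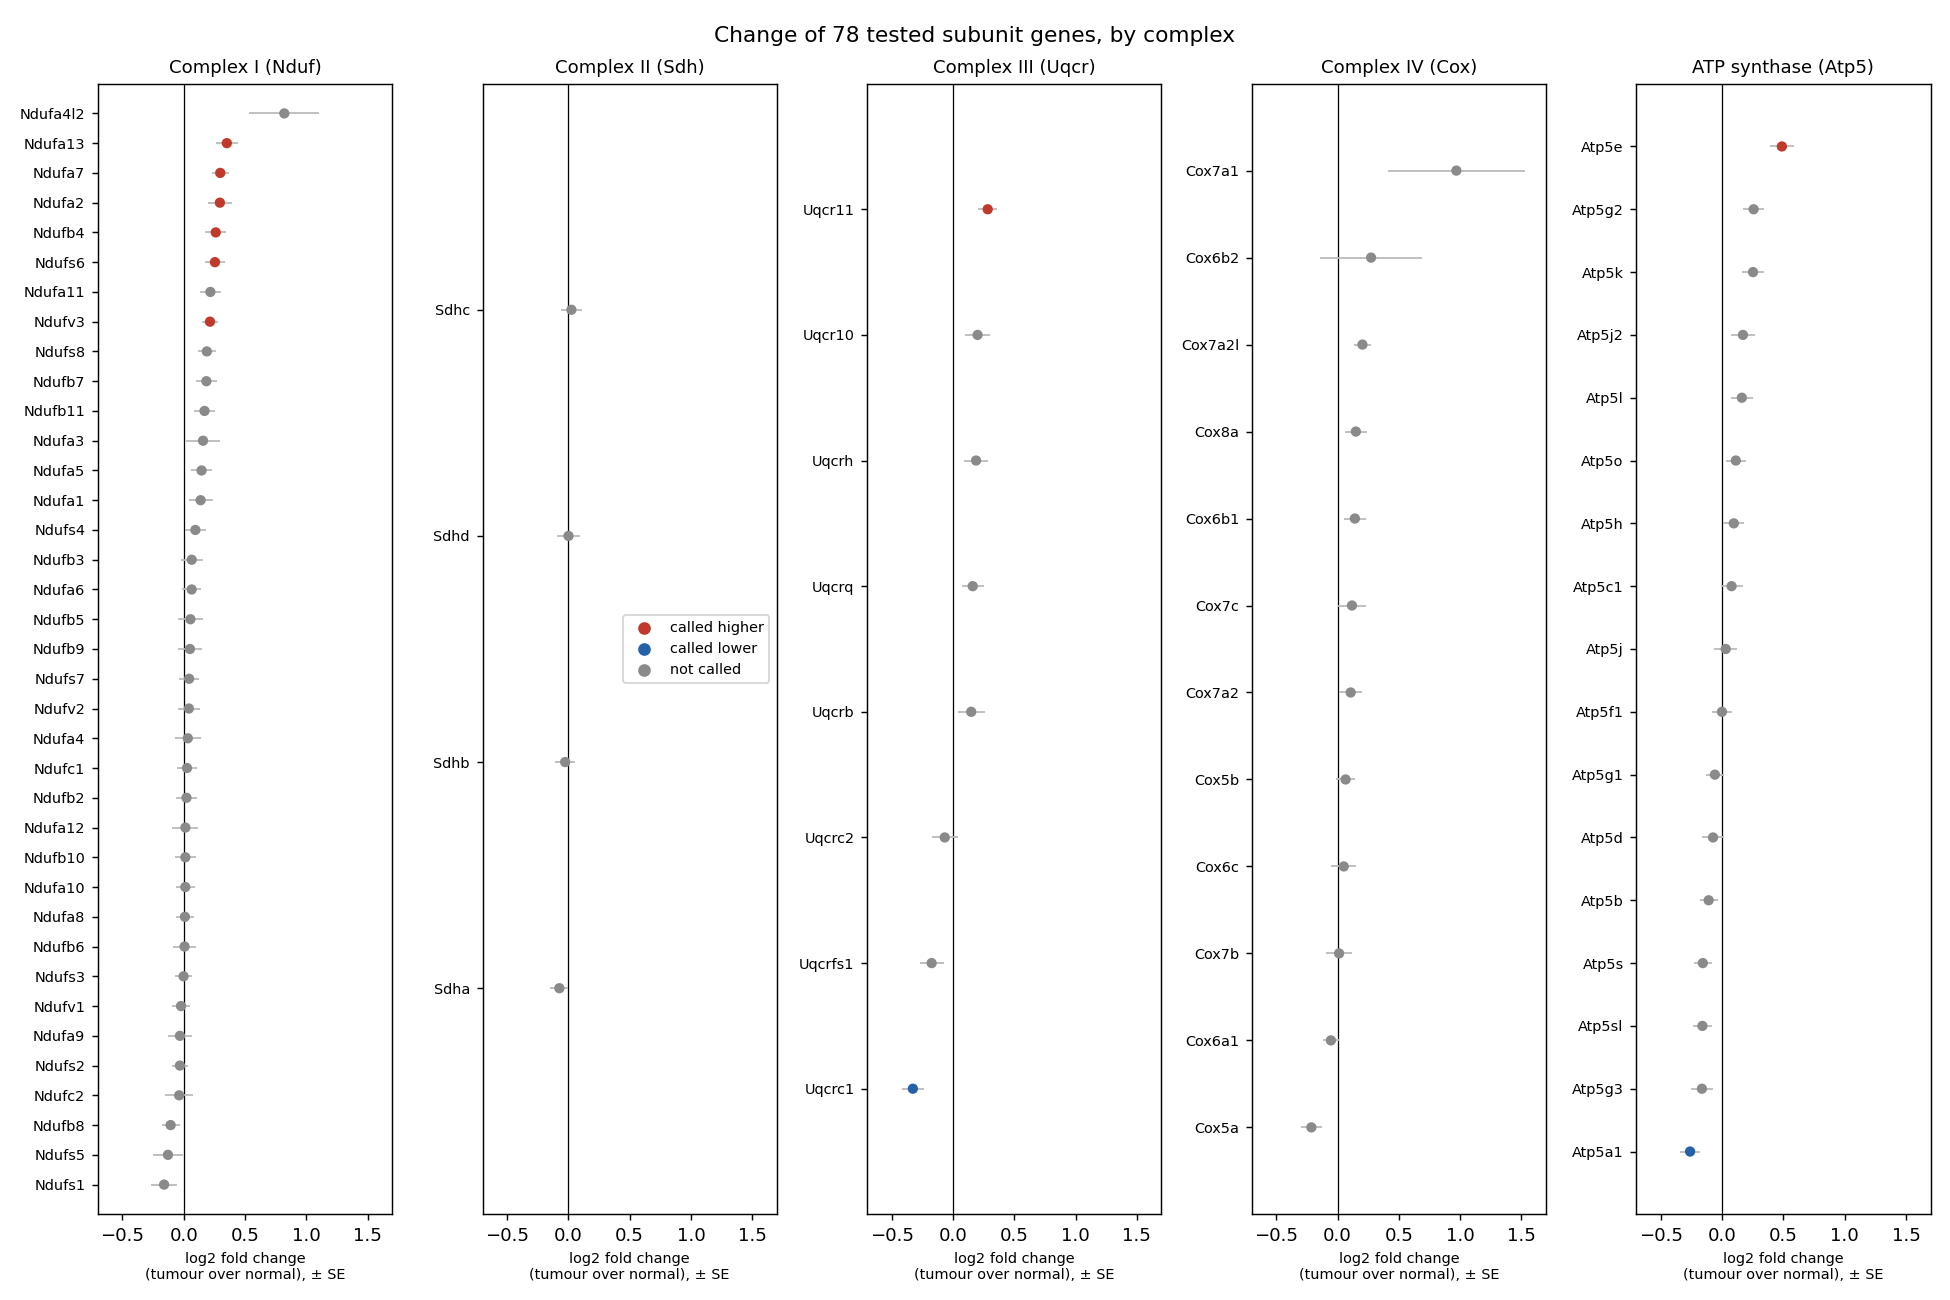
Log2 fold change of each of the 78 tested members (tumour over normal nerve, horizontal axis, bars are SE), listed in order within each complex, with colour for called higher, called lower and not called. The 8 members called higher are in complexes I, III and V, and the 2 called lower are in complexes III and V.

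The complexes kept similar totals. Complex I members summed to 2873 ± 250 CPM in normal nerve and 2985 ± 210 CPM in tumour, complex II to 563 ± 48.1 and 548 ± 30.4, complex III to 795 ± 79.6 and 807 ± 67.8, complex IV to 1290 ± 139 and 1355 ± 85.1, and complex V to 3289 ± 235 and 3164 ± 225 (SD, n = 6 each). In each complex the 2 groups overlapped. Normal nerve replicate 1 had the lowest total of the 12 libraries (7631 CPM) and normal nerve replicate 6 the highest (9671 CPM), and both belong to the same group.

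**Figure D2:**
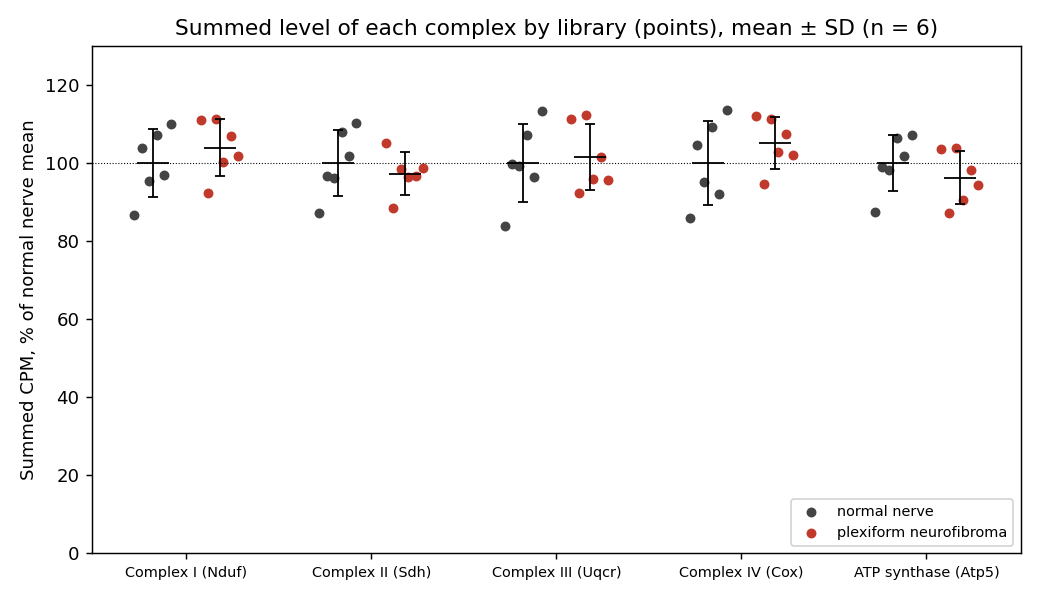
Summed CPM of the members of each complex as a percentage of its normal nerve mean (vertical axis), 1 point per library, with the group mean and SD (n = 6 each). The ranges of the 2 groups overlap in all 5 complexes, and normal nerve replicate 1 is the lowest normal nerve in each.

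Complex I takes electrons from NADH. Of its 37 members 6 were higher (16.2%, against 10% of all genes) and 0 were lower by edgeR (0 at an unadjusted p under 0.05, and 0 by DESeq2 or limma-voom, against 8.63% of all genes by edgeR). DESeq2 called 7 higher, where it called 2226 of all 17236 genes higher, and limma-voom 11, where it called 2864. After either correction for transcript length, described with the length trend, 0 were called in either direction. All 6 are accessory subunits, out of 30 members outside the core (26 of 30 above 0, median log2 fold change 0.06). The 30 were taken by symbol and include Ndufa4 and Ndufa4l2 (0.03 and 0.82). With the coding length correction 12 of the 30 were above 0 and 18 below. Of the 7 core subunits, which carry the electron path, 0 were called in either direction by edgeR or DESeq2, and their median was -0.00. One of them, Ndufs8, was higher at an unadjusted p under 0.05 and by limma-voom. Whether the accessory and core members differ was not tested.

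Ndufa13, also known as GRIM-19, is an accessory subunit of the complex (chromosome 8, 69894180 to 69902558). Its lowest, median and highest levels were 86.4, 87.3 and 124 CPM in normal nerve and 113, 121 and 132 CPM in tumour. In 5 normal nerves the level was 95.9 CPM or less and below every tumour, and normal nerve replicate 6, at 124 CPM, lay among the tumours. On the log2 scale the fold change was 0.35 (SE 0.09, adjusted p = 0.0196), and leaving out tumour replicate 4 gave an adjusted p of 0.0505. The gene overlaps Yjefn3 on the same strand (1.93 and 3.43 CPM), and counts of the 2 may be shared.

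Ndufa7, an accessory subunit of the matrix arm (chromosome 17, 33824572 to 33838317), had 38.1, 42.5 and 48.4 CPM in normal nerve and 46.8, 52.9 and 55.1 CPM in tumour. In 5 of 6 tumours it was above every normal nerve, and tumour replicate 2 was within the normal range. Its log2 fold change was 0.30 (SE 0.07, adjusted p = 0.0133), and it was called whichever library was left out (largest adjusted p 0.0332).

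Ndufv3, a small subunit of the NADH-oxidising module, had 66.6, 74.4 and 81.1 CPM in normal nerve and 78.9, 87.6 and 92.0 CPM in tumour. Tumour replicate 2 was the only tumour within the normal range. The log2 fold change was 0.21 (SE 0.06, adjusted p = 0.0358). Ndufs6, a zinc-binding subunit, had 34.4, 39.1 and 45.7 CPM in normal nerve and 44.0, 46.2 and 55.2 CPM in tumour. In 3 tumours it was within the normal range, and the log2 fold change was 0.25 (SE 0.08, adjusted p = 0.0387). It overlaps Mrpl36 on the opposite strand (20.3 and 25.2 CPM). Leaving out 1 library took the adjusted p of Ndufv3 over 0.05 in 9 of 12 cases (up to 0.0759) and that of Ndufs6 in 10 (up to 0.0787), in both cases highest without normal nerve replicate 5.

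Ndufa2 and Ndufb4, named after their values were seen to complete the 6, were nearest the threshold. Ndufa2 had 42.0, 45.1 and 60.7 CPM in normal nerve and 53.9, 58.3 and 69.8 CPM in tumour, and 1 tumour was above every normal nerve (log2 fold change 0.29, SE 0.10, adjusted p = 0.0491). Ndufb4 had 11.7, 12.2 and 14.9 CPM in normal nerve and 14.03, 15.5 and 16.7 CPM in tumour, and 4 tumours were above every normal nerve (log2 fold change 0.26, SE 0.08, adjusted p = 0.0475). Ndufa2 was called in 1 and Ndufb4 in 2 of the 12 fits that left out a library.

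The core subunits gave values with no call. Ndufs1, which holds iron-sulphur clusters of the entry module, had 127, 163 and 180 CPM in normal nerve and 112, 142 and 169 CPM in tumour (log2 fold change -0.16, SE 0.10, adjusted p = 0.286). Ndufv1, which binds NADH, had 115, 127 and 154 CPM in normal nerve and 114, 126 and 138 CPM in tumour (log2 fold change -0.02, SE 0.08, adjusted p = 0.862). The groups overlapped for both. Over the 37 members log2 fold changes ran from -0.16 (Ndufs1) to 0.82 (Ndufa4l2).

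Complex II, succinate dehydrogenase, has 4 nuclear members, which link the citric acid cycle to the chain. By edgeR 0 were called (0 at an unadjusted p under 0.05, and 0 by DESeq2 or limma-voom), where 10% of all genes were higher and 8.63% lower. The 4 log2 fold changes ran from -0.07 to 0.02. Sdha, the flavin-binding subunit, had 260, 292 and 337 CPM in normal nerve and 264, 278 and 296 CPM in tumour (log2 fold change -0.07, SE 0.07, adjusted p = 0.507). Sdhb, the iron-sulphur subunit, had 93.5, 118 and 124 CPM and 93.7, 115 and 124 CPM (log2 fold change -0.03, SE 0.08, adjusted p = 0.848). Tumours lay within the normal range for both. Sdhc and Sdhd, the membrane anchors, had log2 fold changes of 0.02 and 0.00, and the groups overlapped.

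Complex III passes electrons from ubiquinol to cytochrome c. Of its 8 members 1 was higher (12.5%, against 10% of all genes), 1 was lower (12.5%, against 8.63%) and 6 were not called. The 3 large subunits Uqcrc1, Uqcrfs1 and Uqcrc2 had log2 fold changes of -0.33, -0.17 and -0.07, and the 5 small ones Uqcrb, Uqcrq, Uqcrh, Uqcr10 and Uqcr11 had 0.15, 0.16, 0.19, 0.20 and 0.28. With the coding length correction, described with the length trend, the 3 large ones had -0.41, -0.28 and -0.13. The 5 small ones then had -0.03, 0.07, 0.01, 0.01 and 0.09, in the same order, and none of the 5 was called. This grouping was seen in the data and not tested.

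Uqcr11, the smallest accessory subunit of complex III (chromosome 10, 80402997 to 80406830, its promoter printed above), had 57.4, 65.6 and 74.8 CPM in normal nerve and 72.0, 79.4 and 86.1 CPM in tumour. In 4 of 6 tumours it was above every normal nerve, and the other 2 tumours lay below normal nerve replicate 6. The log2 fold change was 0.28 (SE 0.08, adjusted p = 0.0213), and leaving out normal nerve replicate 5 gave an adjusted p of 0.0502. Uqcrc1, a core protein that lacks redox cofactors and faces the matrix (chromosome 9, 108936633 to 108949623), had 145, 157 and 180.5 CPM in normal nerve and 110.2, 128 and 155 CPM in tumour. In 5 of 6 tumours it was below every normal nerve, and in tumour replicate 3 it reached 155 CPM. The log2 fold change was -0.33 (SE 0.09, adjusted p = 0.0238), and it was lost without normal nerve replicate 3, normal nerve replicate 5, tumour replicate 4 or tumour replicate 6 (adjusted p up to 0.0603). Uqcrfs1, the Rieske iron-sulphur protein, had 71.2, 94.7 and 103 CPM in normal nerve and 68.7, 79.9 and 96.2 CPM in tumour (log2 fold change -0.17, SE 0.10, adjusted p = 0.222).

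Complex IV, cytochrome c oxidase, reduces oxygen to water. Of its 12 tested members, 0 were called in either direction by edgeR, where 10% of all genes were higher and 8.63% lower. At an unadjusted p under 0.05, 1 was higher and 1 lower. DESeq2 called Cox7a2l higher, and limma-voom with sample weights called Cox7a2l and Cox8a higher and Cox5a lower. Of the 12, 10 had a log2 fold change above 0 (83.3%, against 47.5% of all genes), and the median was 0.11. Their median coding length was 652 bases, and genes under 1000 bases that are no members had a median of 0.15. With the coding length correction, described with the length trend, 3 were above 0 and 9 below, and 2 were called lower. Cox5a, 1 of the first nuclear subunits to join the complex, had 91.7, 117 and 131 CPM in normal nerve and 89.8, 96.9 and 108 CPM in tumour (log2 fold change -0.21, SE 0.09, adjusted p = 0.0928). Cox5b, a zinc-binding subunit, had 128, 149 and 171 CPM and 147, 153 and 160 CPM (log2 fold change 0.07, SE 0.08, adjusted p = 0.564). Cox7a2l, the supercomplex factor, had 115, 135 and 149 CPM in normal nerve and 147, 153 and 172 CPM in tumour. In 5 of 6 tumours it was above every normal nerve, but the call was missed (log2 fold change 0.20, SE 0.07, adjusted p = 0.0615).

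Several complex IV subunits exist as a widespread and a tissue-restricted form. The widespread forms were abundant in both groups and were not called: Cox6a1 (log2 fold change -0.05), Cox6b1 (0.14), Cox7a2 (0.11), Cox7b (0.01) and Cox8a (0.15). On a scale per kilobase of coding transcript, Cox6a1 stood at a mean of 281 CPM per kilobase in normal nerve and 270.5 in tumour, and its partner Cox6a2 at 1.90 and 8.34. Cox7a2 stood at 166 and 179, and its partner Cox7a1 at 2.86 and 5.57. Tumour replicate 1 held the highest level of Cox6a2 and of Cox7a1, as given below, and weighs on their tumour means. The muscle form Cox6a2 read 6.10 CPM in normal nerve replicate 3 and 32.8 CPM in tumour replicate 1 (106 and 641 counts), and 0.0647 to 0.554 CPM in the other 10 libraries. Cox8b, found in muscle and brown fat, read 2.30 and 14.9 CPM in the same 2 libraries and 0 to 0.254 CPM elsewhere. Those libraries are the pair with the highest skeletal muscle marker sums. Tumour replicate 1 also had adipocyte markers at 611 CPM, against 36.1 to 58.2 CPM in the others, with 74.3 CPM of Adipoq but 2.72 CPM of Ucp1. Whether these cells contribute to the result was not tested. Cox7a1, the third muscle and fat form, had 0.458, 1.15 and 2.39 CPM in normal nerve and 1.05, 1.62 and 8.61 CPM in tumour. Its log2 fold change was 0.97 (SE 0.56, adjusted p = 0.232), and leaving out tumour replicate 1, which held the 8.61 CPM, gave 0.14. Cox6b2, known from testis, had 0.765, 1.66 and 5.31 CPM in normal nerve and 2.03, 2.14 and 3.60 CPM in tumour. Normal nerve replicate 6 held the 5.31 CPM. The log2 fold change was 0.27 (SE 0.41, adjusted p = 0.67), and leaving out that library gave 0.82 (adjusted p = 0.0478). The testis forms Cox7b2 and Cox8c read at most 7 and 2 counts in any library.

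**Figure D3:**
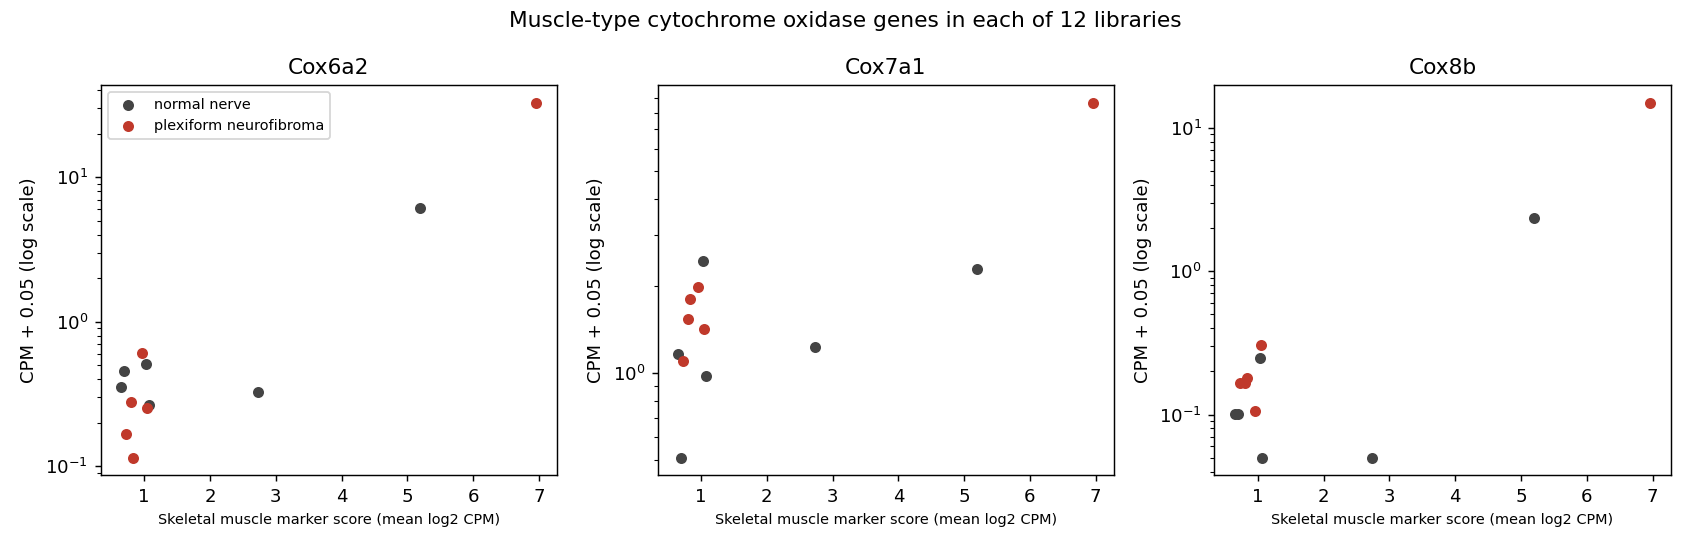
CPM + 0.05 (log axis) of Cox6a2, Cox7a1 and Cox8b against the skeletal muscle marker score (mean log2 CPM of the marker genes), 1 point per library. Normal nerve replicate 3 and tumour replicate 1, which had the highest scores (5.20 and 6.96), had the highest Cox6a2 (6.10 and 32.8 CPM) and Cox8b (2.30 and 14.9 CPM).

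A related pair sits in the Ndufa4 family. Ndufa4 was among the most abundant members per kilobase (447 CPM per kilobase in normal nerve, 458 in tumour), with 221, 275 and 308 CPM and 221, 286 and 311 CPM (log2 fold change 0.03, SE 0.10, adjusted p = 0.846). Its paralog Ndufa4l2, known as a hypoxia-responsive gene, had 0.428, 0.907 and 1.33 CPM in normal nerve and 0.931, 1.62 and 2.12 CPM in tumour. In 5 of 6 tumours it was above every normal nerve. The log2 fold change was 0.82 (SE 0.29, adjusted p = 0.0606), and DESeq2 (adjusted p = 0.0423) and limma-voom (adjusted p = 0.00954) called it.

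Complex V makes ATP, and of its 17 members 1 was higher (5.88%, against 10% of all genes) and 1 was lower (5.88%, against 8.63%). Atp5e, the epsilon subunit of the central stalk (chromosome 2, 174461072 to 174464105), had 44.3, 49.4 and 55.3 CPM in normal nerve and 53.0, 69.4 and 81.3 CPM in tumour. In 5 of 6 tumours it was above every normal nerve, and tumour replicate 2 lay below normal nerve replicate 6. Its log2 fold change of 0.49 (SE 0.10, adjusted p = 0.00598) was the largest in size among the 10 called members. It was called whichever library was left out (largest adjusted p 0.0165).

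Atp5a1, the alpha subunit of the catalytic head, had 574.5, 673 and 713 CPM in normal nerve and 495, 543 and 632 CPM in tumour. In 4 of 6 tumours it was below every normal nerve, and tumour replicates 1 and 3 were within the normal range. Its log2 fold change was -0.26 (SE 0.08, adjusted p = 0.0371), and it was called in 4 of the 12 fits that left out a library (adjusted p up to 0.0889, without tumour replicate 4). It overlaps Haus1 on the opposite strand (8.95 and 10.6 CPM). Atp5b, the catalytic beta subunit and the most abundant member, had 872, 974 and 1076 CPM in normal nerve and 830.2, 920 and 960 CPM in tumour (log2 fold change -0.11, SE 0.07, adjusted p = 0.295).

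**Figure D4:**
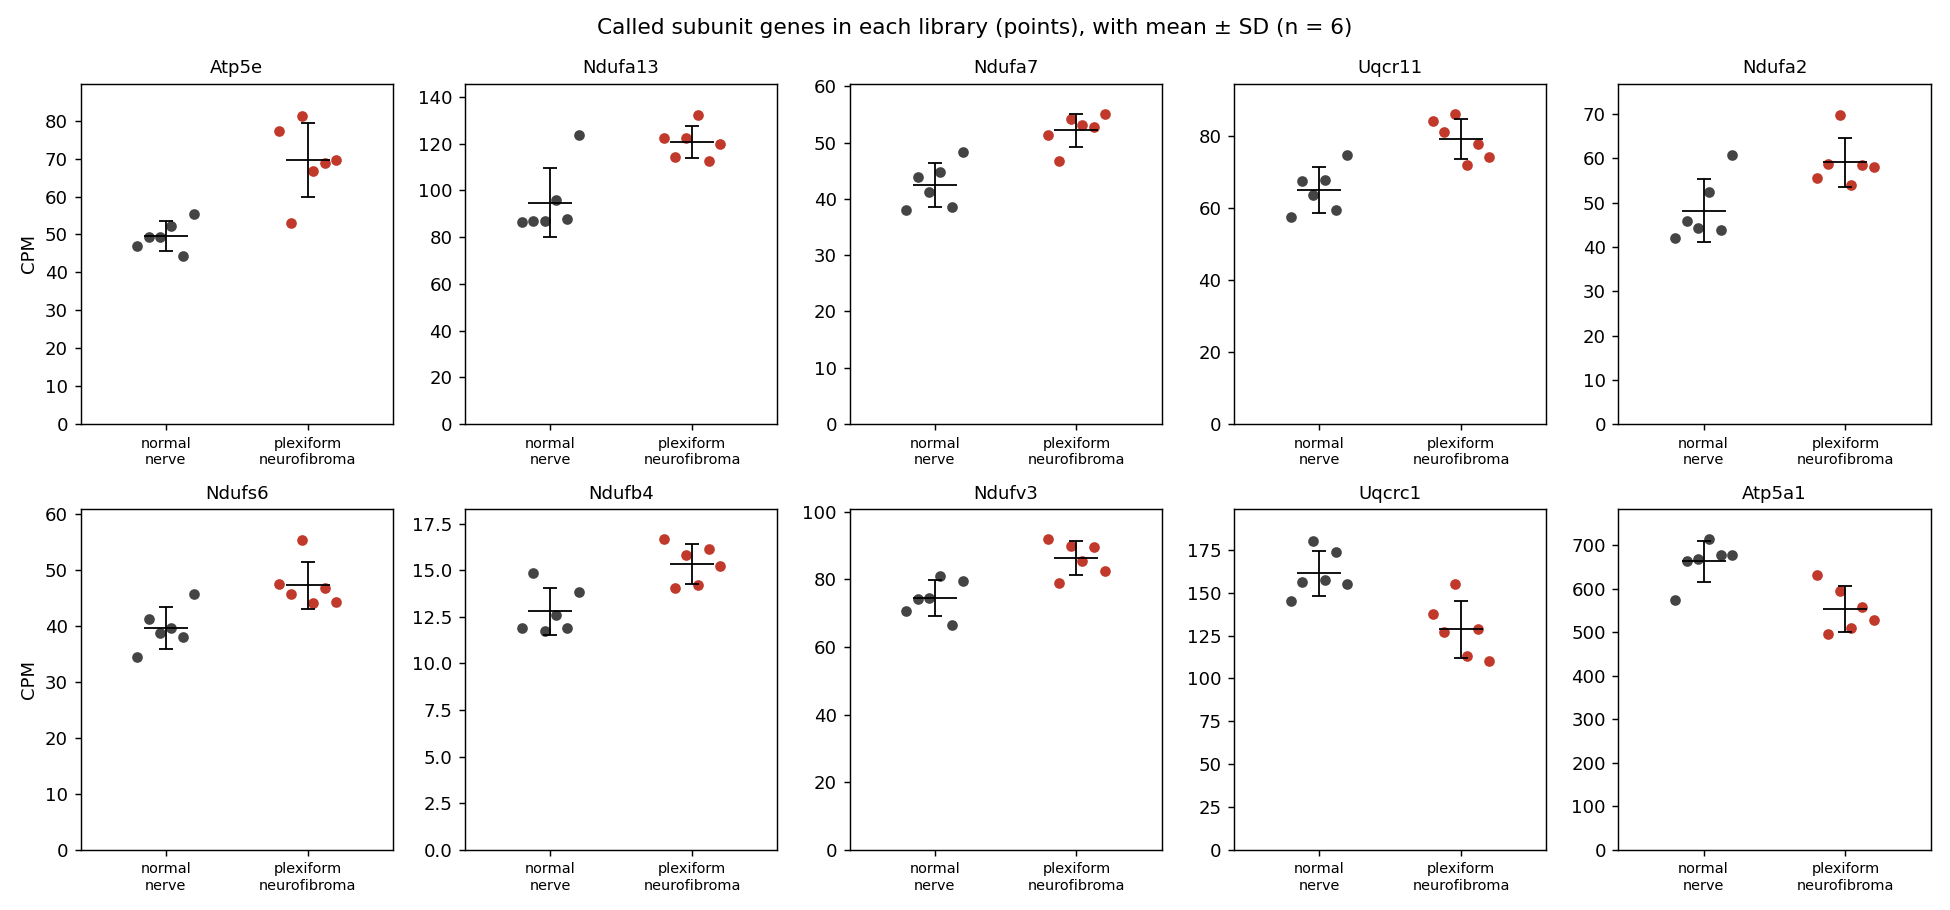
CPM of the 10 called members in each library of normal nerve and tumour, with the group mean and SD, each panel from 0. Atp5e (49.6 ± 3.86 and 69.5 ± 9.76 CPM) has the largest fold difference, and in every panel at least 1 tumour lies within the range of normal nerve.

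Across the genome, the log2 fold change was related to transcript length. Length here is that of the longest protein-coding transcript of a gene. Among genes that are no members, those under 1000 bases (1483 genes) had a median log2 fold change of 0.15, with 18% called higher and 1.35% called lower. Those of 1000 bases or more (15427 genes) had a median of -0.03, with 9.33% and 9.42%. The median fell over bands of length from 0.17 under 500 bases to -0.17 from 6300 bases up. Across all tested genes with a length (n = 16988), log2 fold change and log length had a Pearson r of -0.18 and a Spearman rho of -0.24. Genes are not independent replicates.

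Among members the log2 fold change was likewise negatively related to length. The 44 tested members under 1000 bases had a median of 0.14, with 39 above 0. By edgeR 6 were called higher (13.6%, against 18% of other genes under 1000 bases) and 0 lower (against 1.35%). At an unadjusted p under 0.05 edgeR had 1 lower, and DESeq2 called 0 lower and limma-voom 1. The 34 of 1000 bases or more had a median of -0.00. Of these 2 were higher and 2 lower (5.88% each, against 9.33% and 9.42% of other genes of that length). Of the 10 called members 6 (60%) were under 1000 bases, as were 56.4% of those tested. Short members summed to 3614 ± 393 CPM in normal nerve and 3857 ± 294 CPM in tumour, and long ones to 5195 ± 378 and 5003 ± 320 CPM (SD, n = 6 each), with overlapping groups in both. Across the 78 members r was -0.47 and rho -0.54, and whether this differs from other genes was not tested. The difference between short genes that are no members (under 1000 bases) and long ones (4000 bases or more), as median log2 deviation from each gene's mean, ran from -0.26 to 0.04 in the normal nerves and from 0.11 to 0.21 in the tumours. The groups did not overlap in this measure, and normal nerve replicate 6 was the normal nerve nearest to the tumours. The part that RNA quality or library preparation plays in it was not tested.

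When each library was corrected for its trend with length, most calls among members were on the lower side. A per-library lowess curve of log2 CPM deviation on length was used as an offset. Of the 78 members, 1 was then higher (1.28%, Atp5e) and 6 were lower (7.69%, Uqcrc1, Atp5a1, Cox5a, Atp5g3, Cox6a1 and Atp5s). Over all genes 8.37% were higher and 6.11% were lower, so the share of members called lower was near the background. With the longest transcript of any kind in place of the coding one, the same 7 members were called, and 8.55% and 6.47% of all genes. Atp5e kept a log2 fold change of 0.29 (SE 0.08, adjusted p = 0.0313), Uqcrc1 one of -0.41 (SE 0.09, adjusted p = 0.0118), and Atp5a1 one of -0.27 (SE 0.08, adjusted p = 0.0394). The other 7 members called without correction had corrected log2 fold changes of 0.09 to 0.24 and were not called. Ndufa13 was the nearest of them (0.24, adjusted p = 0.067).

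The correction added 4 calls, each a value relative to other genes of that length. Cox5a went from -0.21 to -0.39 (adjusted p = 0.0084), Atp5g3, which encodes a ring subunit of ATP synthase, from -0.17 to -0.33 (adjusted p = 0.015), Cox6a1 from -0.05 to -0.24 (adjusted p = 0.0159), and Atp5s from -0.16 to -0.24 (adjusted p = 0.0416). The median of the members moved from 0.05 to -0.07, with 27 above 0 and 51 below, where 46.1% of all genes were above 0. By complex the corrected medians were -0.08 for I, -0.10 for II, -0.01 for III, -0.06 for IV and -0.07 for V.

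**Figure D5:**
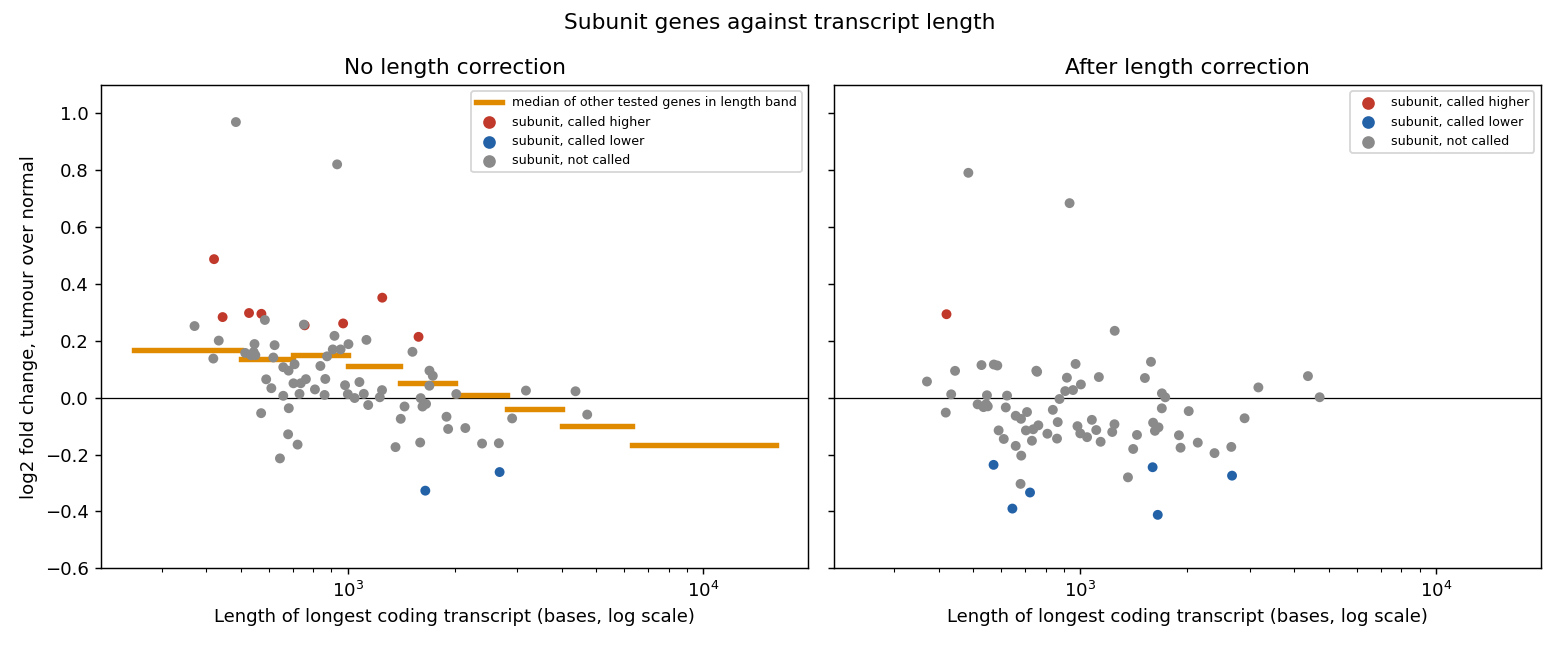
Log2 fold change (vertical axis) against length of the longest coding transcript in bases (log axis), before and after the correction for length, with members as points and, before correction, the median of other genes in each band of length as a bar. Before correction the bars fall from 0.17 to -0.17 and 39 of 44 members under 1000 bases lie above 0, and after it 51 of 78 members lie below 0.

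Without normal nerve replicates 3 and 6 and tumour replicate 1, the libraries that stand apart in muscle or central nervous system markers, 9 members were higher and 2 lower, where 12.4% and 10.9% of all genes were called. Of the 10 calls 8 were kept (Ndufb4 and Ndufv3 were lost), and Atp5g2, Atp5k and Cox6b2 were added. With the sensory neuron score as a covariate all 10 calls were kept. With the skeletal muscle score as a covariate 6 members were higher (7.69%, against 9.64% of all genes) and 2 lower (2.56%, against 8.1%). Ndufa2 and Ndufb4 were then no longer called.

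The proteins that build the complexes, the regulators and enzymes that feed them, and subunits outside the rule were given by 9 lists of 101 genes. Of the 101, 85 were in the count table under the listed symbol, and all 85 were tested. Those not in it were the 13 subunits encoded in mitochondrial DNA, which form 1 of the lists, and Ndufaf8, Coa1 and Twnk. In tumour 2 of the 85 were higher (2.35%, against 10% of all genes) and 7 were lower (8.24%, against 8.63%). The called genes fell in 5 lists, and 0 of 14 complex I assembly factors, 0 of 4 complex II factors and 0 of 5 nuclear subunits outside the rule were called by edgeR. At an unadjusted p under 0.05 these lists gave 2 genes, both lower and both nuclear subunits outside the rule, and limma-voom called 1 complex II factor (Sdhaf1, higher). Among these the smallest p belonged to Ecsit (log2 fold change -0.11, adjusted p = 0.244), Sdhaf1 (0.36, adjusted p = 0.159) and Ndufab1, the acyl carrier protein (-0.16, adjusted p = 0.12).

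Pet100, a chaperone of complex IV assembly, was higher: 11.8, 12.6 and 14.1 CPM in normal nerve and 14.8, 16.2 and 18.4 CPM in tumour. Every tumour was above every normal nerve (log2 fold change 0.37, SE 0.08, adjusted p = 0.0087). Atpaf1, a chaperone of the beta subunit of ATP synthase, was lower: 43.0, 57.9 and 67.7 CPM in normal nerve and 38.9, 39.9 and 42.8 CPM in tumour. Every tumour was below every normal nerve (log2 fold change -0.47, SE 0.10, adjusted p = 0.00828), and its corrected value was -0.51 (adjusted p = 0.00939). Lrpprc, which stabilises mitochondrial messenger RNA, was lower (91.1 ± 15.5 and 68.5 ± 5.61 CPM, log2 fold change -0.41, SE 0.11, adjusted p = 0.0191), with 4 of 6 tumours below every normal nerve.

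In complex III assembly, Uqcc2 was higher (46.1 ± 5.31 and 56.5 ± 5.20 CPM, log2 fold change 0.29, adjusted p = 0.0322) and Ttc19 was lower (49.3 ± 3.66 and 40.3 ± 2.31 CPM, log2 fold change -0.29, adjusted p = 0.0105). The groups overlapped for both. After length correction Uqcc2, a transcript of 500 bases, was not called (0.11, adjusted p = 0.279), and Ttc19 was (-0.27, adjusted p = 0.0177).

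Among the 12 tested regulators of mitochondrial biogenesis, Ppargc1a, the coactivator PGC-1 alpha, was lower: 41.6, 52.7 and 56.3 CPM in normal nerve and 32.5, 39.5 and 44.7 CPM in tumour. In 5 of 6 tumours it was below every normal nerve (log2 fold change -0.36, SE 0.10, adjusted p = 0.0216), and its corrected adjusted p was 0.0824. Esrra, a nuclear receptor that works with it on these genes, was lower: 37.6, 49.0 and 50.5 CPM in normal nerve and 29.9, 37.4 and 40.0 CPM in tumour (log2 fold change -0.34, SE 0.09, adjusted p = 0.0233). In 3 tumours it was below every normal nerve. Of the 17 genes of pyruvate dehydrogenase and the citric acid cycle, Dlat (109 ± 11.4 and 84.2 ± 6.17 CPM, log2 fold change -0.37, adjusted p = 0.00872) and Ogdh (253 ± 25.9 and 204 ± 22.2 CPM, log2 fold change -0.31, adjusted p = 0.0301) were lower, and 0 were higher by edgeR (0 at an unadjusted p under 0.05, 0 by DESeq2, 1 by limma-voom). After length correction Dlat (-0.32, adjusted p = 0.0167) and Esrra (-0.39, adjusted p = 0.0153) were still called and Ogdh was not (-0.26, adjusted p = 0.0574). The regulator Gabpa, named after its values were seen, was then higher (from 0.16 to 0.22, adjusted p = 0.0463). Leaving out 1 library ended the call of Ppargc1a in 2 cases (normal nerve replicates 4 and 5, adjusted p up to 0.0523), that of Esrra in 3 (the same 2 and tumour replicate 4, up to 0.0532) and that of Ogdh in 6 (up to 0.0746, without tumour replicate 4).

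Short processed copies of these genes are common in the genome, and reads can be shared with them. Of the 78 tested members, 21 had an annotated copy with at least 95% identity over 200 aligned bases or more, and none of the 10 called members had one in the table. The called members Ndufb4 and Ndufs6 had an annotated copy that was not in the table (Ndufb4c, 100% identity, and Ndufs6b, 95.8%). Whether reads of these copies were counted under the called members was not tested. In 6 of the 78 the copies held over 5% of the summed CPM of the gene and its copies in normal nerve. They were Atp5l (68.8%), Ndufa12 (26.6%), Ndufs5 (24.8%), Cox7a2l (14.4%), Atp5g1 (9.64%) and Ndufs3 (6.25%). For Atp5l, a subunit of the membrane part of ATP synthase, the copy with the highest level was Gm10221 (80.7 and 99.7 CPM). It matched at 100% identity over 56.8% of the longest coding transcript of Atp5l. Which gene the reads under Gm10221 came from was not tested. The log2 ratio of group means was 0.16 for Atp5l alone and 0.26 with its copies, and for Cox7a2l it was 0.20 alone and 0.27 with its copy.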

How the data were processed

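RNA of trigeminal nerve was sequenced in 12 samples, 6 per group. Per the labels' protocols, total RNA was column purified and polyA libraries were made with a stranded kit (the label names a TruSeq kit too). The tools listed in the submitters' processing notes, in no order, are DESeq2, FastQC, Salmon 0.60 and STAR 2.4.2a, and the build is mm10. Which annotation was counted, and whether by strand, is not stated there. The authors deposited estimated counts per gene symbol without normalization (84.1% to 86.5% of values whole within 0.001), and these expected counts were rounded to whole numbers.

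Columns were matched to samples by title. Symbols were matched to GENCODE vM21 (GRCm38, the assembly of mm10): 45187 of 47480 directly, 629 by RefSeq synonym, and 1664 not. The test was edgeR 4.0.16's quasi-likelihood F test (R 4.3.3, filterByExpr, TMM factors, robust fit) with Benjamini-Hochberg adjustment over all 17236 tested genes and a call at an adjusted p under 0.05. SE is the log2 fold change divided by the square root of F, and each adjusted p without a tool's name is from edgeR. CPM uses TMM-scaled library sizes. The length correction takes a per-library lowess curve (span 0.3). The fit was tested on simulated data.

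The members, lists and alternatives were chosen with earlier results of these data known. Named members were up to 4 called per complex and direction by p, 2 core members per complex, and tissue-restricted forms with their partners; in pathway lists, up to 3 called per direction, or the 1 with the smallest p. The 23 other settings were upper-quartile and RLE factors, testing with no filter or with CPM above 1 in 6 samples, DESeq2 1.42.0, limma 3.58.1 (voom with sample weights), length correction, sensory neuron and skeletal muscle covariates, and each library left out. The coding length version, the fit without 3 libraries and the shorter NRF1 motif were chosen after seeing the data.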

Additional observations from a re-analysis of the deposited data

Results flagged for a closer look

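In these genes 1 library stood far from the other 5 of its group (its gap to the nearest one, as a share of the range of the group, was above Dixon's critical value). Of 98 groups examined 16 met this, where chance flags about 1 in 20 groups, so some are due to chance. In normal nerve replicate 1, Atp5a1 (574.5 CPM), Sdhb (93.52 CPM) and Ttc19 (42.47 CPM) were lowest, and this library also had the lowest total of the members. In tumour replicate 2, Cox7a2 (96.98 CPM) and Sdhb (93.66 CPM) were lowest. In tumour replicate 3, Ndufa2 (69.78 CPM), Ndufs6 (55.23 CPM) and Cox8c (0.05086 CPM, from 1 count) were highest. In normal nerve replicate 6, Ndufa13 (123.7 CPM), Cox6b2 (5.311 CPM) and Cox8c (0.1328 CPM, from 2 counts) were highest; it is the library with the highest central nervous system marker sum. In normal nerve replicate 3, Cox6a2 (6.102 CPM) and Cox8b (2.303 CPM) were highest, and in tumour replicate 1, Cox6a2 (32.84 CPM), Cox8b (14.91 CPM) and Cox7a1 (8.607 CPM). These 2 libraries also hold the highest skeletal muscle marker sums, and the part of muscle RNA in the values was not tested.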

How the results depend on the processing

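The 8 members higher, 2 lower and the 10 calls kept their counts with RLE factors, with the filter at CPM above 1 in 6 samples and with the sensory neuron covariate. Members called higher numbered 5 with upper-quartile factors, 4 without a filter, 19 with limma-voom and 1 with either length correction; members called lower numbered 0 without a filter and 6 with either length correction. Over all genes, limma-voom called 2864 higher and 2701 lower, and the fit without a filter called 902 lower. In the pathway lists limma-voom called 5 higher and the length correction with the longest transcript 1. The median log2 fold change of the members was -0.068 with the coding length correction. Leaving out 1 library at a time gave 3 to 19 members higher, 0 to 3 lower (0 without normal nerve replicate 3 or 5 or tumour replicate 4 or 6), a median of 0.0216 to 0.111, 1092 to 2544 genes higher and 801 to 2487 lower over all genes, and 1 to 3 higher and 4 to 7 lower in the pathway lists. The 19 came without normal nerve replicate 6, and the 3 without normal nerve replicate 5 or tumour replicate 4. No named gene changed direction while called. The cause of these changes was not tested, except that leaving out a library or a filter changes the number of samples or genes tested. No paired analysis was possible because the labels give no shared replicate numbers. With 6 libraries per group, members with under 10 counts per library (Cox7b2 and Cox8c, and Cox6a2 and Cox8b in most libraries) gave no test.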
